A study of Mus musculus with 7 samples.

Results

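Imprinted genes are expressed mainly from the copy inherited from 1 parent, and many of them control growth before birth. The set described here holds 10 such genes of the 51826 in the deposited liver table, taken by symbol: Meg3, Rian, Mirg and Dlk1, 4 transcripts of the Dlk1-Dio3 domain on chromosome 12, and H19, Igf2, Peg3, Grb10, Plagl1 and Cdkn1c, 6 imprinted growth genes at other loci. They were selected on their values in these same libraries, the KI against WT difference included, so that the differences below are a description, with no p-value. All 10 had counts, and 9 of them, all but Dlk1, passed the expression filter and entered the fit.

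RNA was sequenced from livers of 4 Sprtn Y118C/Y118C mice (knock-in, KI) and 3 wild-type mice (WT), all untreated males of the C57BL/6J strain aged 6 months. Sprtn protein cuts up proteins that have become covalently trapped on DNA. The series asks how the mutation affects liver gene expression. The KI genotype changes 1 residue of the protein, so that the level of Sprtn mRNA does not check the labels; its log2 difference, KI minus WT, was 0.18 (SE 0.11).

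In the Dlk1-Dio3 domain the paternal copy gives the protein-coding genes Dlk1, Rtl1 and Dio3. The maternal copy gives a run of long noncoding RNAs, Meg3, Rian and Mirg, which host snoRNAs and many microRNAs. Methylation of a control region between Dlk1 and Meg3 separates the copies, and the zinc finger protein ZFP57, which binds a methylated TGCCGC hexamer, helps to keep such methylation at imprinted loci. In the mouse liver many of these genes are abundant in the fetus and are shut down after birth. The counts do not separate the parental copies.

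Total counts per library were 36928472 to 46736592 in KI and 40297676 to 46755357 in WT. Counts were scaled to CPM (counts relative to the TMM-scaled library size), in which 3 counts correspond to 0.0662 to 0.0787 CPM in KI and to 0.0624 to 0.0749 CPM in WT. On the first principal component, which held 29.5% of the variance, WT replicate 1 lay at -9.56, among the KI libraries at -26.4 to -7.95, while the other WT libraries lay at 32.5 and 35.98. KI replicate 1 held 86.9 CPM of 9 skeletal muscle transcripts, against 0.472 to 0.847 CPM in the other KI libraries and 0.595 to 1.20 CPM in WT. For the members and some other genes, differences that rest on either library are also given without it. Correlations and marker scores were taken over all 7 livers only. These are bulk samples, in which fewer cells of a type and less RNA per cell cannot be told apart.

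The start of Meg3 and that of Rian are shown because these are the transcripts whose levels separated the genotypes, and the start of Plagl1 because it lay in the other direction. Each is the RefSeq window on GRCm38.p6, plus strand, 300 bases that end shortly after a start annotated in RefSeq. The Plagl1 window lies inside the gene as the deposited table gives it, which begins further upstream at 13060504. Capitals mark GCGGCA, the TGCCGC hexamer read on the other strand.
Meg3 start, chr12:109540746-109541045: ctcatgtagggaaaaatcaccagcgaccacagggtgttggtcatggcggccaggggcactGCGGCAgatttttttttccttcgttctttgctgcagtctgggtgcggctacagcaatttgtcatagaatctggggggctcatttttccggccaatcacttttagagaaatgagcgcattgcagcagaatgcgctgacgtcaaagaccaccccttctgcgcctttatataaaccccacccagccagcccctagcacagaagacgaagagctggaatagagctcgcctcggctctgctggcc
Rian start, chr12:109603695-109603994: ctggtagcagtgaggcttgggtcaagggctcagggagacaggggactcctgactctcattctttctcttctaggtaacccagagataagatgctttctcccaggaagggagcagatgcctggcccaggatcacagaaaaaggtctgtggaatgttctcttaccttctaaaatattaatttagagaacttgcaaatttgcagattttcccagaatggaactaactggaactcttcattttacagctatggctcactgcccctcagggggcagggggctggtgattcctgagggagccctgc
Plagl1 start, chr10:13090582-13090881: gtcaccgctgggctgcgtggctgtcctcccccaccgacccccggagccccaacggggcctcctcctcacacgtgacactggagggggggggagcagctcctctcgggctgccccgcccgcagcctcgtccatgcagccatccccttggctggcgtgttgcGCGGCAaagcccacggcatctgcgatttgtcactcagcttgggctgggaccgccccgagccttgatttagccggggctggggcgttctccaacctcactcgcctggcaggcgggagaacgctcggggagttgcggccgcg

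The Meg3 window shown held 13 CpG dinucleotides, with 0.602 of the number its base composition gives, and the Plagl1 window held 26, with 0.696. A second RefSeq window of Meg3, chr12:109545148-109545447, held 1 CpG, at 0.059 of that number, and no hexamer. The Rian window held 0 CpG and no hexamer. RefSeq windows were found for 8 members, 13 windows in all, and 4 of these held TGCCGC on either strand: the ones above of Meg3 and Plagl1, and 1 each of Igf2 and Grb10. Among all 32851 RefSeq promoter windows of 300 bases, 11.6% held the hexamer, and the median was 7 CpG at 0.384 of the composition-based number. A match of letters is a description of the window and not a binding site. H19 and Cdkn1c had no window in the table.

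Mature microRNAs that lie within Meg3 and Rian in RefSeq are shown to say what the transcripts that differed carry. Meg3 holds 3 mature arms of 2 hairpins, all in exons, and Rian holds 6 arms of 3 hairpins, all in introns. Capitals mark the seed, bases 2 to 8.
miR-1906: uGCAGCAGccugaggcagggcu
miR-770-5p: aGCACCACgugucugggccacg
miR-770-3p: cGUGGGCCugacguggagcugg
miR-341-5p: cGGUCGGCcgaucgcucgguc
miR-341-3p: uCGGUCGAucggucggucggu
miR-1188-5p: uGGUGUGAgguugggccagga
miR-1188-3p: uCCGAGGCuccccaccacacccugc
miR-370-5p: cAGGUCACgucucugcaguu
miR-370-3p: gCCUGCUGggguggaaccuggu

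These 9 arms have 9 different seeds. Mirg holds 26 arms of 14 hairpins, and a shared seed was found only there, between the following pair.
miR-453: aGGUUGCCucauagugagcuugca
miR-496a-5p: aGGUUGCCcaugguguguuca

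H19 carries both arms of miR-675 in an exon, and Igf2 both arms of miR-483 in an intron. MicroRNA precursors of the chromosome 12 domain were not visible in the counts of these libraries of polyadenylated RNA. Of the 60 rows named as microRNA precursors between the start of Dlk1 and the end of Mirg, 0 had a count. Of all 104 rows of that interval, 6 had counts.

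Meg3 and Rian were higher in KI livers, Mirg was also higher on average but rested on few reads, and Dlk1 was nearly silent in both genotypes. Meg3 (ENSMUSG00000021268, chr12:109541001-109571726, plus strand, mm10), a noncoding RNA with growth-restraining roles, had 6.84, 6.06, 7.81 and 11.3 CPM in KI livers, against 5.12, 1.598 and 2.18 CPM in WT livers. All 4 KI livers lay above all 3 WT livers, as in 5.48% of all genes tested, and the nearest pair was KI replicate 2 and WT replicate 1. The means were 8.001 ± 2.31 CPM in KI and 2.97 ± 1.89 CPM in WT (SD, n = 4 and 3), a log2 difference of 1.43 (SE 0.39), or 2.70-fold. Leaving out WT replicate 1 gave 2.07, and leaving out WT replicate 2 gave 1.14.

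Rian (ENSMUSG00000097451, chr12:109603940-109661716, plus strand), the noncoding host of many C/D box snoRNAs, had 8.52, 5.09, 11.7 and 11.7 CPM in KI livers, against 3.36, 1.35 and 1.85 CPM in WT livers. The groups did not overlap, and WT replicate 1 was again the highest of the WT livers. Rian averaged 9.24 ± 3.15 CPM in KI and 2.19 ± 1.05 CPM in WT (SD, n = 4 and 3), which gave a log2 difference of 2.08 (SE 0.38), or 4.23-fold. It was 2.52 without WT replicate 1 and 1.83 without WT replicate 2.

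Mirg (ENSMUSG00000097391, chr12:109729764-109749460, plus strand), the noncoding host of the microRNA cluster at the far end of the domain, had 6, 9, 14 and 20 counts in KI livers, against 10, 2 and 0 counts in WT livers. WT replicate 1 lay within the KI range, so the groups overlapped, and a count of 0 in WT replicate 3 allows up to 0.0624 CPM. Summed over libraries there were 49 counts in KI and 12 in WT, and the ratio of the sums scaled for library size was 3.21, with an exact 95% interval of 1.68 to 6.64 that covers counting error only. The log2 difference was 1.64 (SE 0.85), and it was 3.54 without WT replicate 1.

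**Figure D1:**
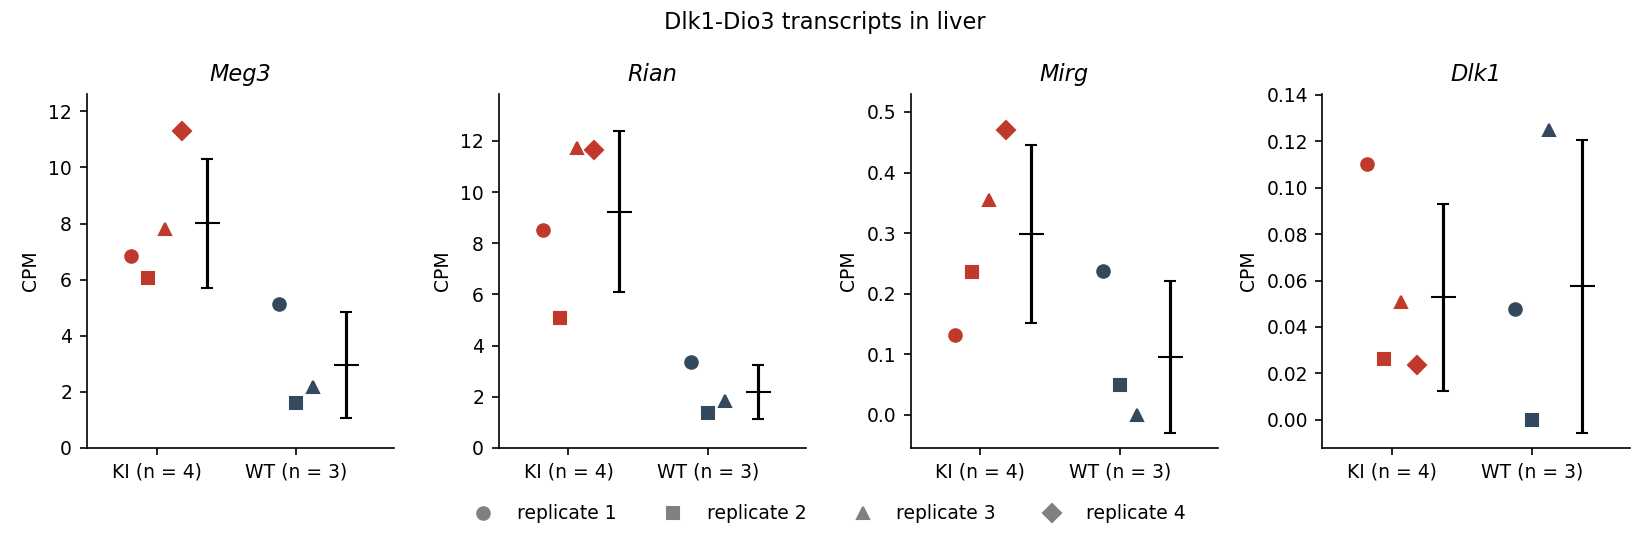
CPM (vertical axes, 1 scale per gene) of Meg3, Rian, Mirg and Dlk1 in each library, KI left of WT, with the replicate number as the marker shape, and the mean and SD as bars. Meg3 and Rian lie higher in all 4 KI livers than in the 3 WT livers, Mirg overlaps through WT replicate 1, and Dlk1 lies near 0 throughout.

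Dlk1 (ENSMUSG00000040856, chr12:109452823-109463336, plus strand), which encodes a transmembrane inhibitor of adipocyte and other differentiation, had 5, 1, 2 and 1 counts in KI livers, against 2, 0 and 6 counts in WT livers. It had 9 counts in KI and 8 in WT in all, a scaled ratio of 0.885 with an exact 95% interval of 0.303 to 2.64 that is too wide to show a direction at this depth. The other protein-coding genes of the domain also had few or no counts. Rtl1, a retrotransposon-derived placental gene, had 3, 0, 0 and 1 counts in KI livers, against 1, 0 and 0 counts in WT livers. Dio3, which inactivates thyroid hormone, had 1, 1, 1 and 6 counts in KI livers, against 2, 3 and 3 counts in WT livers. Begain, at the edge of the domain, had 0 counts in KI and 2 in WT, in replicates 2 and 3. No direction can be read for Rtl1, Dio3 or Begain. The expression filter removed all 3 of them, and 0 were called in the edgeR fit with no filter.

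The estimated difference was larger for Rian than for Meg3, but whether the 2 differences themselves differ was not tested. Rian had 1.25, 0.840, 1.5 and 1.03 counts for each Meg3 count in KI livers, against 0.656, 0.844 and 0.848 in WT livers. The ratio averaged 1.15 ± 0.284 in KI and 0.782 ± 0.110 in WT (SD, n = 4 and 3), and the groups overlapped through KI replicate 2. Meg3, Rian and Mirg together came to 15.5, 11.4, 19.9 and 23.4 CPM in KI livers, against 8.72, 3.00 and 4.03 CPM in WT livers.

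No comparable separation was seen in the 6 growth genes at other loci. Their summed level was 10.99, 9.23, 9.81 and 9.30 CPM in KI livers, against 7.91, 12.1 and 11.02 CPM in WT livers, with means of 9.83 ± 0.814 CPM in KI and 10.3 ± 2.18 CPM in WT (SD, n = 4 and 3). For each of the 6 genes the range of the KI livers overlapped that of the WT livers. They are given below by the parental copy that is mainly expressed, first the maternally expressed ones.

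H19 (ENSMUSG00000000031, chr7:142575529-142578143, minus strand), a growth-restraining noncoding RNA, had 126, 21, 39 and 21 counts in KI livers, against 2, 27 and 42 counts in WT livers. In CPM these were 2.78, 0.551, 0.988 and 0.494 in KI livers, against 0.0476, 0.674 and 0.873 in WT livers. KI replicate 1 stood far above and WT replicate 1 far below the rest, and the other 5 livers lay within 0.494 to 0.988 CPM. The log2 difference of 1.17 (SE 0.82) was 0.34 without KI replicate 1 and -0.20 without both of these libraries. Skeletal muscle, which keeps H19 expression in the adult, was the tissue whose transcripts were found in KI replicate 1; their part in the H19 value was not tested.

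Grb10 (ENSMUSG00000020176, chr11:11930508-12038683, minus strand), an adaptor that dampens insulin and IGF receptor signalling, had 1.81, 2.10, 2.94 and 4.07 CPM in KI livers, against 1.48, 2.02 and 4.22 CPM in WT livers. The highest liver was WT replicate 3 and the lowest WT replicate 1, with all KI livers between them. The log2 difference was 0.08 (SE 0.40), and its sign turned in 5 of 15 alternatives, within -0.20 to 0.64.

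Cdkn1c (ENSMUSG00000037664, chr7:143458339-143461050, minus strand), an inhibitor of cyclin-dependent kinases, had 1.17, 1.89, 1.17 and 1.08 CPM in KI livers, against 1.71, 1.97 and 1.68 CPM in WT livers. In this gene 3 KI livers lay below all WT livers, and KI replicate 2 lay among the WT livers. Its log2 difference was -0.43 (SE 0.24), within -0.65 to -0.35 over 15 alternatives.

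Among the paternally expressed genes, Igf2 (ENSMUSG00000048583, chr7:142650766-142666816, minus strand), the fetal insulin-like growth factor, had 26, 22, 28 and 20 counts in KI livers, against 22, 20 and 24 counts in WT livers. In CPM it was 0.574, 0.577, 0.710 and 0.471 in KI livers, against 0.524, 0.499 and 0.499 in WT livers. The values were low and close together in every liver, and the log2 difference was 0.20 (SE 0.26).

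Peg3 (ENSMUSG00000002265, chr7:6703892-6730431, minus strand), a zinc finger protein gene, had 3.99, 3.62, 3.14 and 2.57 CPM in KI livers, against 3.57, 5.47 and 2.81 CPM in WT livers. WT replicate 2 was the highest liver, and without it the log2 difference of -0.24 (SE 0.25) turned to 0.06.

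Plagl1 (ENSMUSG00000019817, chr10:13060504-13131694, plus strand), which encodes a zinc finger transcription factor that restrains growth and binds other imprinted genes in the mouse, had 0.662, 0.498, 0.862 and 0.612 CPM in KI livers, against 0.572, 1.47 and 0.936 CPM in WT livers. WT replicates 2 and 3 lay above all KI livers, and WT replicate 1 among them. The log2 difference was -0.59 (SE 0.35); it was -0.20 without WT replicate 2 and -0.86 without WT replicate 1.

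**Figure D2:**
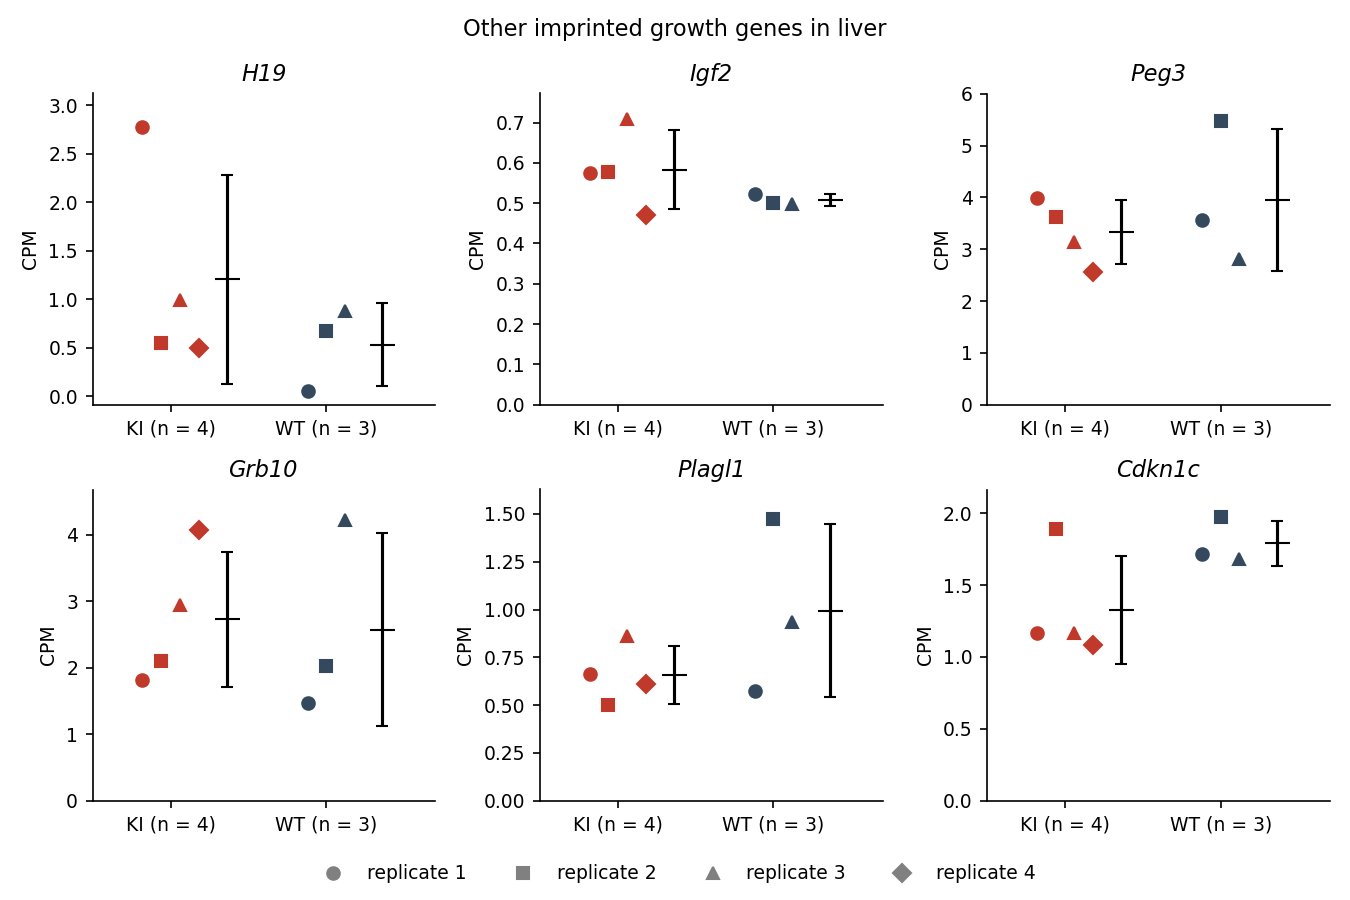
CPM (vertical axes, 1 scale per gene) of H19, Igf2, Peg3, Grb10, Plagl1 and Cdkn1c in each library, KI left of WT, with the replicate number as the marker shape, and the mean and SD as bars. The 2 genotypes overlap in all 6 genes, the high H19 value is KI replicate 1 at 2.78 CPM, and the high Cdkn1c value among the KI livers is replicate 2 at 1.89 CPM.

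Counted over the set, Meg3 and Rian were the only members whose KI livers all lay above the WT livers, as did 5.48% of all genes tested, and 0 members lay wholly below, as did 5.46%. The edgeR quasi-likelihood fit over 13989 genes called 5 genes at an adjusted p under 0.05, or 0.0357%, and 0 members were among them. DESeq2 called 1.59% of the same genes and 0.633% of 21027 genes were called in the authors' deposited table, and Meg3 and Rian were among the calls of each. Since these values served to choose the members, nothing is read from these counts. The authors' deposited table gives log2 fold changes of 1.43 for Meg3, 2.08 for Rian, 1.62 for Mirg and -0.15 for Dlk1.

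**Figure D3:**
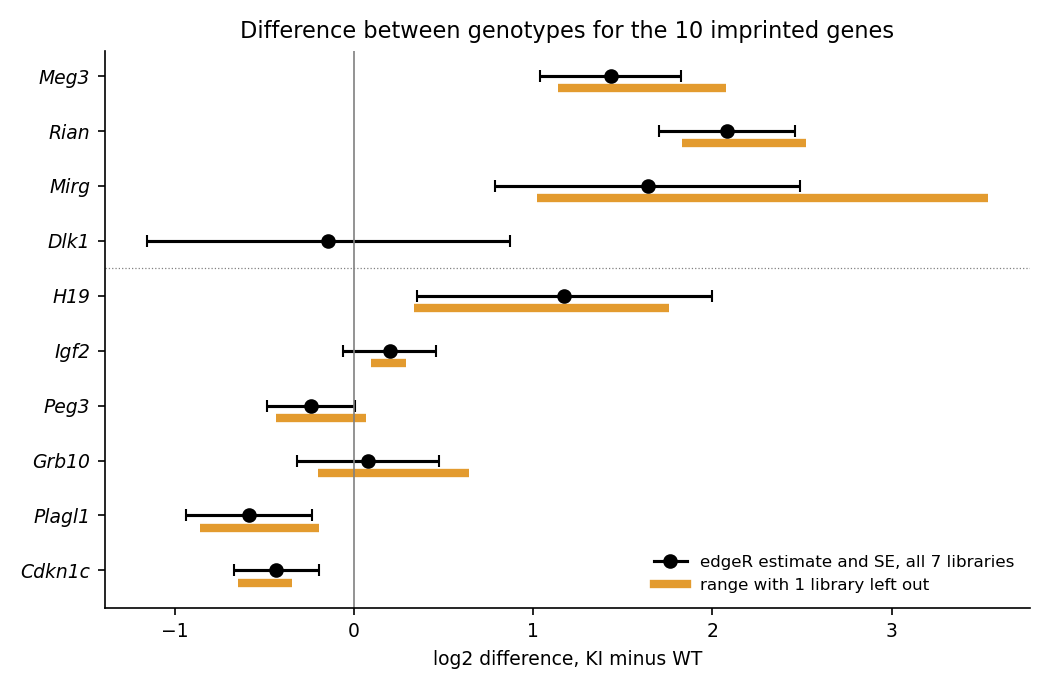
Log2 difference, KI minus WT (horizontal axis), of the 10 members, with the 4 Dlk1-Dio3 transcripts above and the 6 other genes below; points and black bars are the edgeR estimate and SE, and orange bars the range when 1 library is left out. Rian lies at 2.08 and Meg3 at 1.43, and their groups do not overlap, so leaving out 1 library could not turn their direction. The ranges of Peg3 and Grb10 cross 0, and Dlk1 is from the fit with no expression filter and has no range.

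Per length, in the TPM values that the authors deposited, all members were at low levels. Means over the 7 livers ran from Cdkn1c at 1.48 TPM, through Rian at 1.06, H19 at 0.748, Meg3 at 0.629, Grb10 at 0.581, Peg3 at 0.530, Plagl1 at 0.203, Igf2 at 0.189 and Mirg at 0.0636, to Dlk1 at 0.0190 TPM. Neighbours in this order overlapped in their ranges over the livers, except Igf2 at 0.160 to 0.241 TPM and Mirg at 0 to 0.141 TPM. Within KI livers Rian had the highest mean at 1.58 ± 0.519 TPM, ahead of Cdkn1c at 1.28 ± 0.433 TPM (SD, n = 4). In WT livers Cdkn1c at 1.74 ± 0.186 TPM led, and Rian had 0.376 ± 0.159 TPM and Meg3 0.318 ± 0.184 TPM (SD, n = 3).

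Shared exons limit some of these values, and the library does not mark strand. In the GENCODE M21 annotation, 64.5% of the exonic bases of Igf2 lie in other genes, chiefly the same-strand Gm49394. No row of the table was matched to Gm49394, so that the Igf2 counts may hold or lack its reads. Of the exonic bases of Cdkn1c, 30.7% lie in the antisense Gm44732, a gene with 0 counts. For H19 the share was 9.15%, for Meg3 8.29%, for Mirg 5.03% and for Rian 3.42%. The genes that overlap H19, Meg3, Mirg and Rian all had 0 counts in the table. Peg3, Grb10 and Dlk1 shared no exonic base.

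The domain's noncoding RNAs varied together from liver to liver, also inside a genotype. Across the 7 livers the Pearson correlation of log2 CPM was 0.96 between Meg3 and Rian, 0.88 between Meg3 and Mirg and 0.82 between Rian and Mirg. After each genotype's mean was taken out, the same correlations were 0.87, 0.78 and 0.63. Dlk1, from the same domain and at very few counts, gave 0.09 with Meg3, and 0.11 inside genotypes. The member with the pattern most opposed to that of Rian was Cdkn1c at -0.86, and -0.79 inside genotypes, and Plagl1 gave -0.76 with Meg3, and -0.68 inside genotypes. These are descriptions over 7 libraries that share genotype and tissue composition.

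Among 11793 genes with a mean of at least 1 CPM, the 5 whose log2 CPM followed Meg3 most closely over the 7 livers lay on other chromosomes. They were Plpp1, a lipid phosphatase gene, at a correlation of 0.989, Alg6, of N-glycan assembly, at 0.985, Tpmt, a methyltransferase of thiopurines, at 0.984, Pdgfc, a growth factor, at 0.984, and Ces1g, a carboxylesterase, at 0.981. Their own log2 differences were 0.33 (SE 0.11) for Plpp1, 0.32 (SE 0.12) for Alg6, 0.43 (SE 0.12) for Tpmt, 0.75 (SE 0.27) for Pdgfc and 0.73 (SE 0.24) for Ces1g, all smaller than that of Meg3. Rian ranked 19, and 121 genes reached a correlation of 0.9. Of the other members with a mean of 1 CPM, Grb10 ranked 5328, Peg3 9928 and Cdkn1c 11189.

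Zonation markers of hepatocytes differed between genotypes alongside Meg3 and Rian. Periportal hepatocytes sit by the incoming blood and pericentral ones by the outgoing vein. A score, the mean centred log2 CPM of 8 markers, was -0.05, -0.29, -0.10 and -0.43 for the periportal list in KI livers, against 0.05, 0.54 and 0.27 in WT livers. All 8 periportal markers were lower in KI, at log2 differences of -0.91 to -0.02, the smallest nearly flat. Summed levels were 5663 to 7828 CPM in KI and 8341 to 10994 CPM in WT. Of the 8, 0 passed in edgeR and 3 in DESeq2, beside 0.0357% and 1.59% of all genes tested. The pericentral score was 0.38, 0.24, 0.33 and 0.06 in KI livers, against 0.21, -0.49 and -0.73 in WT livers. All 8 markers were higher in KI, at log2 differences of 0.09 to 1.67. Summed levels were 8642 to 9812 CPM in KI and 5417 to 10241 CPM in WT. Of these pericentral markers, 0 passed in edgeR and 2 in DESeq2, beside the same shares of all genes tested. Over the 7 livers Meg3 had a correlation of -0.94 with the periportal and 0.83 with the pericentral score, and Rian of -0.86 and 0.80. After each genotype's mean was taken out, these were -0.81 and 0.60 for Meg3, and -0.49 and 0.50 for Rian. Among the KI livers, replicate 4 had the highest Meg3 level together with the lowest periportal and also the lowest pericentral score. WT replicate 1, the WT liver with the highest Meg3, was also the WT liver with the lowest periportal and the highest pericentral score. The part of zonation in the Meg3 and Rian values was not tested.

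**Figure D4:**
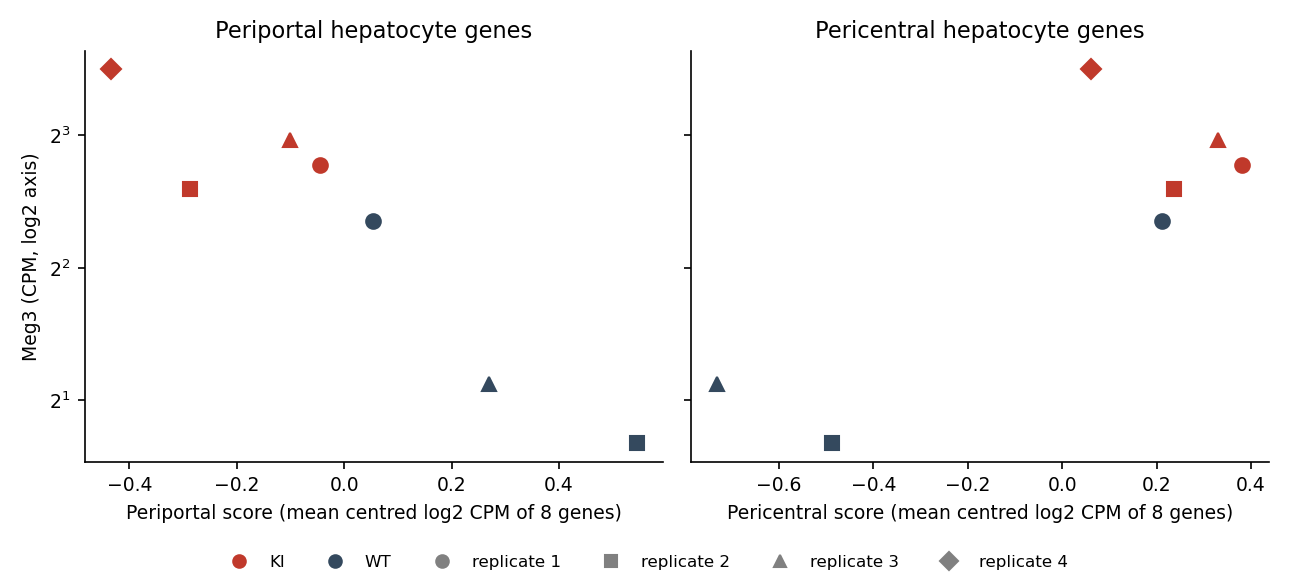
Meg3 in CPM (vertical axis, log2 scale) against the periportal score (left) and the pericentral score (right) of each liver; KI and WT differ in colour and the replicate number in marker shape. Meg3 lies lower where the periportal score is higher, and WT replicate 1, at 5.12 CPM, lies next to the KI livers in both panels.

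Markers of other liver cell types differed in how they moved with the domain. All 7 Kupffer cell markers were lower in KI, with summed levels of 181.0 to 226.9 CPM in KI and 236.0 to 324.6 CPM in WT. Of the 7, Timd4 passed in edgeR, and 5 passed in DESeq2, beside 0.0357% and 1.59% of all genes tested. The Kupffer score had a correlation of -0.74 with Meg3 and -0.87 with Rian over the 7 livers, but of 0.42 and 0.02 after each genotype's mean was taken out. Cholangiocyte markers, 5 of 6 tested higher in KI, summed to 42.4 to 59.0 CPM in KI and 25.7 to 41.9 CPM in WT. Spp1 alone gave most of this sum in every library. The score of the 6 tested markers overlapped, at -0.07 to 0.41 in KI and -0.45 to 0.26 in WT. Stellate cell and fibroblast markers, 7 of 10 tested higher in KI, summed to 195.3 to 241.3 CPM in KI and 197.0 to 231.8 CPM in WT, and sinusoidal endothelial markers, 5 of 8 higher in KI, to 261.1 to 316.0 CPM in KI and 256.7 to 315.3 CPM in WT. The hepatocyte list itself, 1 of 7 higher in KI, summed to 60532 to 78318 CPM in KI and 72724 to 86396 CPM in WT, with these genes abundant in every library. Its score had a correlation of -0.76 with Meg3 and -0.81 with Rian, and of -0.54 and -0.68 inside genotypes. For the stellate list the correlations were 0.46 and 0.54, and -0.04 and 0.06 inside genotypes. The mesothelial list gave -0.65 and -0.64, and -0.50 and -0.53 inside genotypes. Its score holds only 2 tested markers, and KI replicate 4 lay at -2.30, far below the next lowest liver, KI replicate 3 at -0.28. The cholangiocyte list had correlations of 0.28 and 0.35, and of -0.38 and -0.39 inside genotypes. For the endothelial list they were -0.01 and -0.12, and -0.19 and -0.51 inside genotypes. Mesothelial markers summed to 0.306 to 1.86 CPM in KI and 1.27 to 1.90 CPM in WT, and adipose markers, of which Lep was at 0 in every library, to 9.78 to 23.7 CPM in KI and 8.03 to 14.1 CPM in WT. The part of these cell types in the members' values was not tested.

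Genes around the domain gave no call. Within 1 Mb of the interval from the start of Dlk1 to the end of Mirg (chr12:108452823-110749460), the table held 153 other genes, of which 22 had counts and 13 were tested. Of these, 8 were higher and 5 lower in KI, with a median log2 difference of 0.07. In edgeR and in DESeq2 0 passed, beside 0.0357% and 1.59% of all genes tested. At such shares, 0 calls in so short a list say little. An unadjusted edgeR p under 0.05 was found in 2, beside 1478 of the 13989 genes tested. In 2 of the 13, Wars and AL591582.1, every KI liver lay above every WT liver, and in 0 every KI liver lay below. Over all genes tested these shares were 5.48% and 5.46%. Wars, the tryptophanyl-tRNA synthetase, had 17.8 ± 0.323 CPM in KI and 14.0 ± 2.56 CPM in WT (SD, n = 4 and 3), at an edgeR adjusted p of 0.368. The clone-named gene AL591582.1 had a log2 difference of 0.57 (edgeR adjusted p = 0.472), Evl, an actin regulator, -0.35 (edgeR adjusted p = 0.544), and Slc25a29, a mitochondrial carrier, -0.41 (edgeR adjusted p = 0.580). The most abundant neighbours, the hepatic carrier Slc25a47 and the chaperone Hsp90aa1, had log2 differences of 0.19 and 0.13.

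Other imprinted genes lay on both sides of 0. A wider list of 70 other imprinted mouse genes had 69 in the table, 58 with counts and 42 tested. In these, 22 were higher and 20 lower in KI, and the median log2 difference was 0.03 against 0.0007 for all genes tested. In edgeR 0 passed, beside 0.0357% of all genes tested. An unadjusted edgeR p under 0.05 was found in 8, beside 1478 of the 13989 genes tested. DESeq2 called Snrpn and Slc22a3, beside 1.59% of all genes tested, and the authors' deposited table called Snrpn, beside 0.633% of its genes. In 5 of the 42 every KI liver lay above every WT liver, and in 2 every KI liver lay below, beside the 5.48% and 5.46% of all genes tested.

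Snrpn, a paternally expressed spliceosome protein gene of the Prader-Willi region, had 12.4, 10.5, 13.3 and 11.6 CPM in KI livers, against 7.93, 6.76 and 6.24 CPM in WT livers. The groups did not overlap, and the log2 difference was 0.77 (SE 0.12), at an adjusted p of 0.123 in edgeR and 8.1e-05 in DESeq2. Without WT replicate 1 it passed in edgeR, at an adjusted p of 0.0391, in a setting that called 98 of 14187 genes. With any other single library left out, the edgeR adjusted p of Snrpn was 0.197 to 0.477. Of its exonic bases, 27.3% lie in Gm38393, with 0 counts in the table, and a smaller part in Snurf, with 6 counts. Slc22a3, an organic cation transporter expressed from the maternal copy in the mouse placenta, had 4.44, 5.85, 2.89 and 3.01 CPM in KI livers, against 2.62, 1.52 and 1.58 CPM in WT livers. Its log2 difference was 1.08 (SE 0.31), at an adjusted p of 0.315 in edgeR and 0.0440 in DESeq2. The abundant plasminogen gene Plg, with 647890 counts in all, shares 9.31% of the exonic bases of Slc22a3 on the other strand, and reads of the 2 genes cannot be told apart there.

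Peg10, a paternally expressed retrotransposon-derived gene, had 0.706, 0.970, 1.14 and 0.918 CPM in KI livers, against 0.810, 4.09 and 2.47 CPM in WT livers. WT replicate 1 lay within the KI range, and the log2 difference of -1.40 (SE 0.46) was at an adjusted p of 0.352 in edgeR and of 0.0391 without that liver. With any other single library left out, the edgeR adjusted p of Peg10 was 0.433 to 0.862. Impact, a translational regulator, had a log2 difference of -0.34 (SE 0.10; edgeR adjusted p = 0.342), with 7.52 ± 0.591 CPM in KI and 9.51 ± 0.607 CPM in WT (SD, n = 4 and 3). The most abundant imprinted genes, the amino acid transporter Slc38a4 and the G protein gene Gnas, had log2 differences of -0.27 and -0.02, with 997.1 ± 81.4 CPM in KI and 1201 ± 182.6 CPM in WT for Slc38a4, and 301.0 ± 13.1 CPM in KI and 305.3 ± 16.4 CPM in WT for Gnas (SD, n = 4 and 3).

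**Figure D5:**
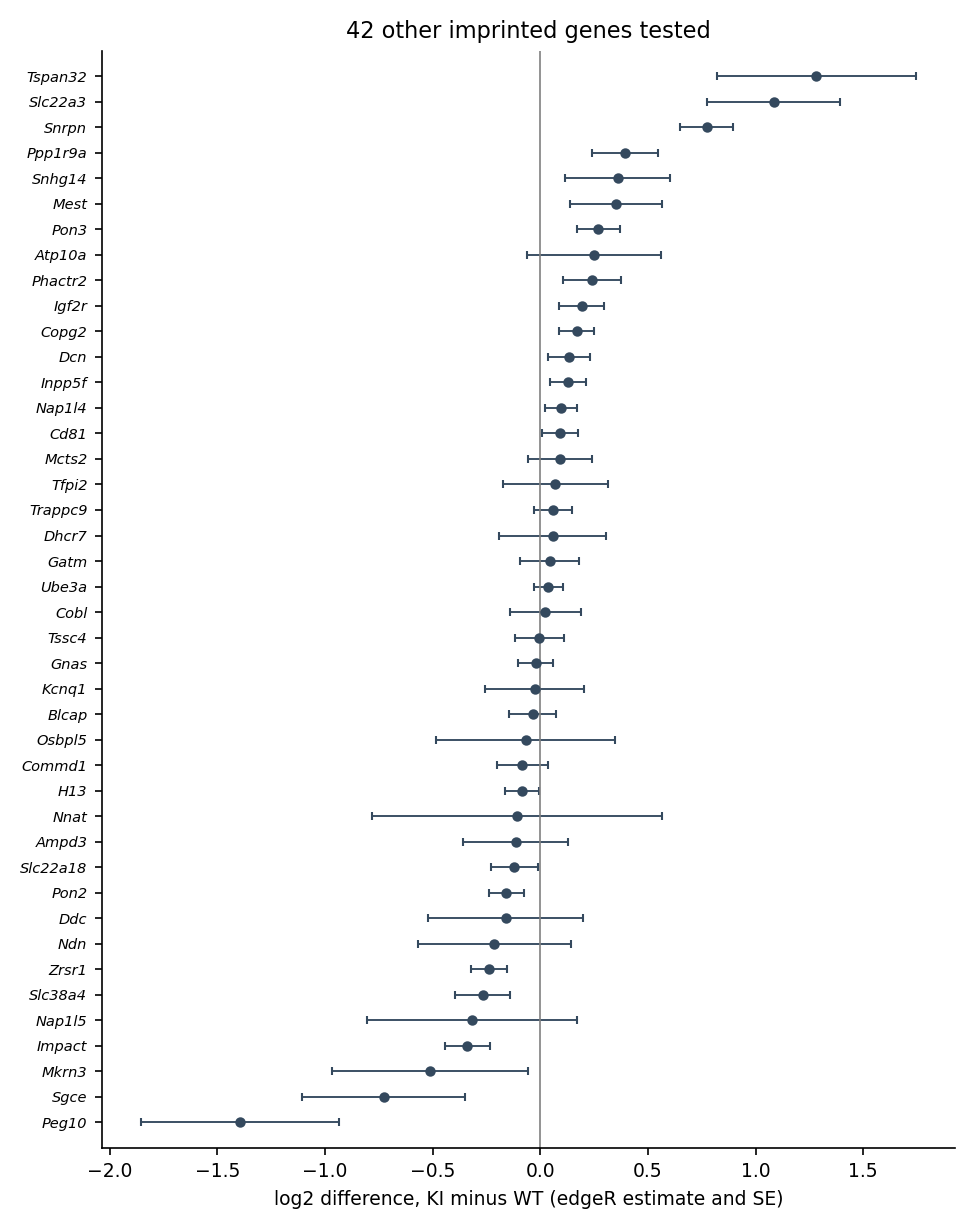
Log2 difference, KI minus WT (horizontal axis), of the 42 other imprinted genes tested, with the edgeR estimate as a point and its SE as a bar, sorted from highest to lowest. Differences lie on both sides of 0, with Slc22a3 at 1.08 and Snrpn at 0.77 among the highest and Peg10 at -1.40 the lowest.

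Listed regulators of imprinting, which include factors that place, keep or oxidise DNA methylation, showed no call. Of 23 listed, 19 were tested, 12 were higher and 7 lower in KI, with a median log2 difference of 0.03. In edgeR and in DESeq2 0 passed, beside 0.0357% and 1.59% of all genes tested, so 0 calls say little here. An unadjusted edgeR p under 0.05 was found in 1, beside 1478 of the 13989 genes tested. In 1 of the 19 every KI liver lay above every WT liver, and in 2, Tet2 among them, every KI liver lay below. Over all genes tested these shares were 5.48% and 5.46%. Tet2, which oxidises methylcytosine, had 5.47 ± 0.655 CPM in KI and 7.04 ± 0.787 CPM in WT (SD, n = 4 and 3), a log2 difference of -0.36 at an edgeR adjusted p of 0.395. Dnmt3a, a de novo methyltransferase, had 0.23, Trim28, the corepressor recruited by ZFP57, -0.12, and Zfp445, a further zinc finger protein that maintains imprints, 0.03.

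Fetal liver genes gave no call. Of 14 listed, 7 were tested, 5 were higher and 2 lower in KI, with a median log2 difference of 0.09. In edgeR and in DESeq2 0 passed, beside 0.0357% and 1.59% of all genes tested, so 0 calls say little here. An unadjusted edgeR p under 0.05 was found in 1, beside 1478 of the 13989 genes tested. Igf2bp2, an RNA-binding protein of fetal tissues, had 0.772, 0.524, 1.22 and 1.18 CPM in KI livers, against 0.714, 0.399 and 0.312 CPM in WT livers, at an edgeR adjusted p of 0.460. Tff3, a trefoil peptide gene, had 6.16, 1.21, 11.1 and 2.07 CPM in KI livers, against 0.143, 45.6 and 29.9 CPM in WT livers. WT replicate 1 was the lowest liver and the other WT livers the highest, and the log2 difference of -2.29 (SE 1.15) was at an edgeR adjusted p of 0.511. Afp, the fetal serum protein, had 1.43, 0.944, 0.887 and 2.28 CPM in KI livers, against 0.762, 1.35 and 1.04 CPM in WT livers. The groups overlapped for Igf2bp2, Tff3 and Afp, and the log2 difference of Afp was 0.41 (SE 0.37; edgeR adjusted p = 0.720). Zbtb20, a repressor of Afp after birth, had a log2 difference of 0.09. It was counted in this list, as was Zhx2, so the counts and the median do not cover fetal genes alone.

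Genes of the IGF and insulin growth pathway, in which Igf2 and Grb10 act, were all tested. Of these 20 genes, 7 were higher and 13 lower in KI, with a median log2 difference of -0.07. In edgeR and in DESeq2 0 passed, beside 0.0357% and 1.59% of all genes tested, so 0 calls say little here. An unadjusted edgeR p under 0.05 was found in 0, beside 1478 of the 13989 genes tested. Igf2r, the imprinted receptor that clears IGF2, had 43.4 ± 3.37 CPM in KI and 38.0 ± 4.92 CPM in WT (SD, n = 4 and 3; edgeR adjusted p = 0.540). Igf1, the main circulating growth factor of the adult liver, had 557.9 ± 37.4 CPM in KI and 578.4 ± 45.3 CPM in WT (SD, n = 4 and 3; edgeR adjusted p = 0.878), a log2 difference of -0.05. Larger estimates lay on the lower side: Socs2, an inhibitor of growth hormone signalling, had -0.76 (SE 0.59), and the IGF-binding protein genes Igfbp5 and Igfbp6 had -0.65 (SE 0.37) and -0.62 (SE 0.43). Their edgeR adjusted p-values were 0.660 for Socs2, 0.552 for Igfbp5 and 0.626 for Igfbp6.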

How the data were processed

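Polyadenylated RNA of 7 mouse livers was sequenced; the second cDNA strand was made without a strand mark, per the labels' protocols. Per the submitters' processing notes, the build was mm10; names of mapper, counter and annotation release were not given in the sources used here. Gene counts are whole numbers without normalization, as the authors deposited them per the file headers. TPM values, which the authors computed per file headers, were used for levels between genes, and the authors' deposited log2 fold change and corrected p-value were set beside the new values. A further 14 columns of library values were not used. GENCODE M21 held 99.6% of the gene identifiers, 94.1% of them at an identical position.

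Counts were fitted with edgeR 4.0.16 in R 4.3.3 (TMM scaling, default expression filter, quasi-likelihood F test, genotype as the only term). The threshold for a call was 0.05 on the p adjusted by Benjamini-Hochberg over 13989 genes. The SE of a log2 difference was derived from the fit, as the absolute difference over the square root of its F statistic. Each library was treated as 1 animal; nothing in the labels says more, so that p-values measure the spread between these samples. No pair of libraries of a genotype agreed within sampling noise. Alternatives were DESeq2 1.42.0, limma-voom (limma 3.58.1), 2 other scalings (RLE, upper-quartile), 2 other filters (none, or 1 CPM or more in 3 libraries), a block for the replicate number, and each library left out. Leaving out KI replicate 1 and WT replicate 1 together was chosen after seeing the data. Simulated counts with known changes were used to test the fits.

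Correlations used log2 CPM with a prior count of 2. Ratios of summed scaled counts have exact 95% intervals, and a count of 0 a limit of 3 counts; both cover counting error only. Sequences are from RefSeq on GRCm38.p6. From each wider list the called genes were named or, where fewer than 4 were called, the 4 with the smallest p and the 2 most abundant; not all of these are described. Members, lists and rules were chosen with earlier results of these data known. Tables were made with Python 3.11.15 and pandas 2.3.3, and figures with matplotlib 3.10.9.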

Additional observations from a re-analysis of the deposited data

Results flagged for a closer look

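Among the KI livers, Cdkn1c in replicate 2 stood apart from the others, at 1.89 CPM against 1.08 to 1.17 CPM in KI replicates 1, 3 and 4. Its gap to the nearest KI liver was 0.892 of the group's range, above Dixon's critical value of 0.829 for 4 samples. Chance alone gives such a gap in about 1 in 20 groups, and 10 members were examined. The WT group, with 3 livers, was not examined in this way.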

How the results depend on the processing

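The number of genes called over the whole table was 5 and depended on the settings: 222 with DESeq2, 18 with no expression filter, 1 with the replicate block, and 29 without KI replicate 1 and WT replicate 1. When 1 library was left out it ran from 3 (without KI replicate 1, and also without KI replicate 4) to 98 (without WT replicate 1). Other imprinted genes called were 0, but 2 with DESeq2 and, over the libraries left out, 0 to 2, the 2 being Snrpn and Peg10 without WT replicate 1. Calls near the domain and in the regulator, fetal liver and growth pathway lists were 0 in all settings run. Of 128 values of the members under alternatives, 124 lay within 1 SD of the value reported. The 4 others were Meg3 at 2.07 and Mirg at 3.54 without WT replicate 1, and Meg3 at 2.14 and Mirg at 3.79 without KI replicate 1 and WT replicate 1; the cause was not tested. Without KI replicate 2, 3 or 4, Mirg did not pass the expression filter and has no value. Deviations of same-numbered KI and WT livers had correlations of -0.06, 0.01 and -0.02, and those of differently numbered ones -0.24 to 0.26. With deviations from means of 4 and 3 livers, this cannot decide whether the numbers pair the samples. With the block, Meg3 gave 1.37 and Rian 1.97. Mirg, Dlk1, Rtl1, Dio3 and Begain are limited by depth.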
